A study of Mus musculus with 5 samples.

Results

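The genes described here are 37 genes of the endoplasmic reticulum (ER), its chaperones, folding enzymes, stress sensors, degradation machinery and translocation channel. They were chosen by name, with earlier results of these data known. Each was read from the brightest of its probe sets that carried 1 gene symbol. All 37 were among the 18193 genes with such a probe set, and all passed the filter on signal that left 10852 genes for testing. Ero1l is listed on the array as Ero1a.

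The cells were B9, a mouse line labelled as coming from a cutaneous squamous cell carcinoma with the genotype HRAS-Q61L. Every group carries this change, which keeps the RAS protein active so that it signals to the RAF kinases. For 17 h the cultures received 1 µM vemurafenib (also PLX4032), a BRAF inhibitor, 1 µM PLX7904, a BRAF inhibitor of another class, or with the vehicle dimethyl sulfoxide (DMSO). Each culture was read on 1 Affymetrix array: 2 with vemurafenib, 2 with PLX7904 and 1 with DMSO. The labels name biological replicates without saying how the cultures were grown, so that p-values measure only the spread between these arrays, whose number limits the precision. The single DMSO array has no spread of its own and takes that of the treated arrays. It serves in each comparison with DMSO. The vehicle is labelled 0.2% DMSO, while the stated stock volume is 0.02% of the medium.

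Median signals of the 5 arrays ranged from 44.1 to 51.9. All 10 keratinocyte markers passed the filter on signal, and their summed signal was 110791 with DMSO, 115132 to 115790 with vemurafenib and 111524 to 115380 with PLX7904. Of the fibroblast markers 1 of 6 passed (Pdgfra), with summed signals of 164, 373 to 402 and 195 to 246 in the same order, and the collagen genes Col1a1, Col1a2 and Col3a1 read between 7.75 and 50.7. This sum moved with vemurafenib. Pdgfra alone read 83.3 with DMSO, 264 and 231 with vemurafenib, and 138 and 132 with PLX7904. Pdgfra rose 2.89-fold against DMSO (adjusted p = 0.00327) and was 1.81-fold higher than with PLX7904 (adjusted p = 0.0166). The part of this sum in the results was not tested. For immune cells 2 of 5 passed (239, 254 to 273 and 240 to 257). For endothelium 1 of 4 passed (181, 48.5 to 126 and 84.4 to 203). For melanocytes 0 of 4 passed (37.8, 47.6 to 71.8 and 55.7 to 112). For hair follicle and sebocytes 2 of 5 passed (192, 145 to 206 and 133 to 238). Of 8 B-cell and plasma-cell markers measured 3 passed, summing to 17803, 18629 to 19546 and 16581 to 17826, nearly all of it from Sdc1, which epithelium also makes. Prdm1, a transcription factor of plasma cells that epithelium also makes, read 135 with DMSO, 350 and 406 with vemurafenib, and 133 and 120 with PLX7904. It rose 2.76-fold against DMSO (adjusted p = 0.00236) and was 2.92-fold higher than with PLX7904 (adjusted p = 4.03e-04), and its part in the results was not tested. The B-cell receptor genes Cd79a and Cd79b read between 1.51 and 16.5 on every array. The keratinocyte sum hides changes in both directions. With vemurafenib, Itga6 rose 1.40-fold (adjusted p = 0.00117) and Dsp fell 1.19 times (adjusted p = 0.0470) against DMSO. Itgb4 (1.40-fold) and Itga6 (1.29-fold) were higher with vemurafenib than with PLX7904, and Krt5 was 1.18 times lower. The part of these changes in the results was not tested.

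Proteins bound for the cell surface or for secretion enter the ER through the Sec61 channel and fold there with the help of the HSP70 chaperone BiP (Hspa5), the HSP90 chaperone GRP94 (Hsp90b1), disulfide isomerases, lectins that read their sugar chains, and prolyl isomerases. Chains that fail to fold are sent back to the cytosol and degraded. When unfolded chains build up, the sensors Ern1 (IRE1), Eif2ak3 (PERK) and Atf6 start the unfolded protein response, in which Xbp1 mRNA is spliced and the factors XBP1 and ATF6 induce many of the genes described here. Keratinocytes make large amounts of secreted and membrane proteins, among them laminins, integrins and desmosomal cadherins.

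Many promoters of such genes hold the ER stress response element (ERSE), to which ATF6 and the factor NF-Y bind. Stretches around the element are shown first because they are what a subset of the genes shares beyond the names that chose them. RefSeq promoters of assembly GRCm38.p6, from 250 bases before to 50 after a gene's start, were found for 32 of the 37 genes. Searched on both strands, the element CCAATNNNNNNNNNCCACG was present in 9 of the 32, or 28.1%. It was present in 14 of the 8836 genes tested that had a promoter in the table (0.158%) and in 37 of all 27025 genes of the table (0.137%). The list was named for ER functions, so this share describes it and is no independent finding. The stretches below run 5′ to 3′ on the gene's own strand and end before the start of transcription. Capitals mark the element, or its reverse complement where it begins with CGTGG. The first 4 genes passed the test between vemurafenib and DMSO, and the last 4 did not.
Hspa5, chr2:34772005-34772063: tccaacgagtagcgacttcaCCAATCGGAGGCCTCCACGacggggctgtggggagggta
Pdia6, chr12:17266471-17266529: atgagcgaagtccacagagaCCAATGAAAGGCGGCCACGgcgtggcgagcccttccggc
Dnajc3, chr14:118937807-118937865: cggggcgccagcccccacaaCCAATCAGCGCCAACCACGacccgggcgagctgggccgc
Creld2, chr15:88819500-88819558: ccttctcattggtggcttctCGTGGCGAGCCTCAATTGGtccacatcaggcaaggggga
Hsp90b1, chr10:86705513-86705676: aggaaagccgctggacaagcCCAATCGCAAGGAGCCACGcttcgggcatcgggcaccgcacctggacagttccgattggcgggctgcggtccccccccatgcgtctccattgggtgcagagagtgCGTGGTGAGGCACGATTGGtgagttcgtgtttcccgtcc
Calr, chr8:84847055-84847113: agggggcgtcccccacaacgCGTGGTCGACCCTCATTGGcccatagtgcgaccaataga
Canx, chr11:50325780-50325838: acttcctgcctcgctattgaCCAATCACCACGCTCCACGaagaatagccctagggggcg
Syvn1, chr19:6046512-6046570: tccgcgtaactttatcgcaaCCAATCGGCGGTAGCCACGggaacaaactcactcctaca

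The element nearest to a start lay 26 bases before it, in Syvn1, and that of Hspa5 ended 47 bases before its start. Hsp90b1 was the only 1 of the 9 with 2 copies, 1 in each direction. Derl3 was the remaining gene with a copy. The related element ERSE-II, ATTGGNCCACG, was found in Dnajb11 and Herpud1, 6.25% of the 32 genes against 0.0905% of the genes tested. That of Herpud1 ended 42 bases before the start, while that of Dnajb11 lay after the start. The shorter site TGACGTGG, whose reverse complement holds the same CCACG, was found in 0 of the 32 and in 1.09% of the genes tested. Its absence says only that these letters are not in these windows.

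With vemurafenib, 12 of the 37 genes rose against DMSO and 0 fell, at an adjusted p under 0.05 over all genes tested. Over all 10852 genes 5.43% were called higher, 5.21% lower and 10.6% called in either direction, while the 12 are 32.4% of the list. The list was chosen with earlier results of these data known, so its share describes it and is no independent finding. Of the genes grouped with the HSP70 and HSP90 chaperones, Sdf2l1, Manf, Creld2, Dnajb9, Dnajc3 and Hspa5 rose. The others that rose were the disulfide isomerases Pdia4, Pdia6 and Pdia3, the prolyl isomerase Ppib, the stress factor Xbp1 and the translocation channel subunit Sec61b. The rises of the 12 were small, from 1.24-fold for Sec61b to 1.50-fold for Sdf2l1. The median log2 fold change of the 37 was 0.23, against -0.05 over all genes tested, and 29 of the 37 lay above 0. In cultures read whole, more RNA per cell and more cells of a kind cannot be told apart. A fold change here is the difference of group means of log2(signal + 3.34). Without limma's variance trend, which ties a gene's expected spread to its signal, 0 of the 37 passed and 43 genes in all. The count was 5 when a gene's probe sets were averaged, 6 without the filter on signal and 7 without vemurafenib replicate 1.

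**Figure D1:**
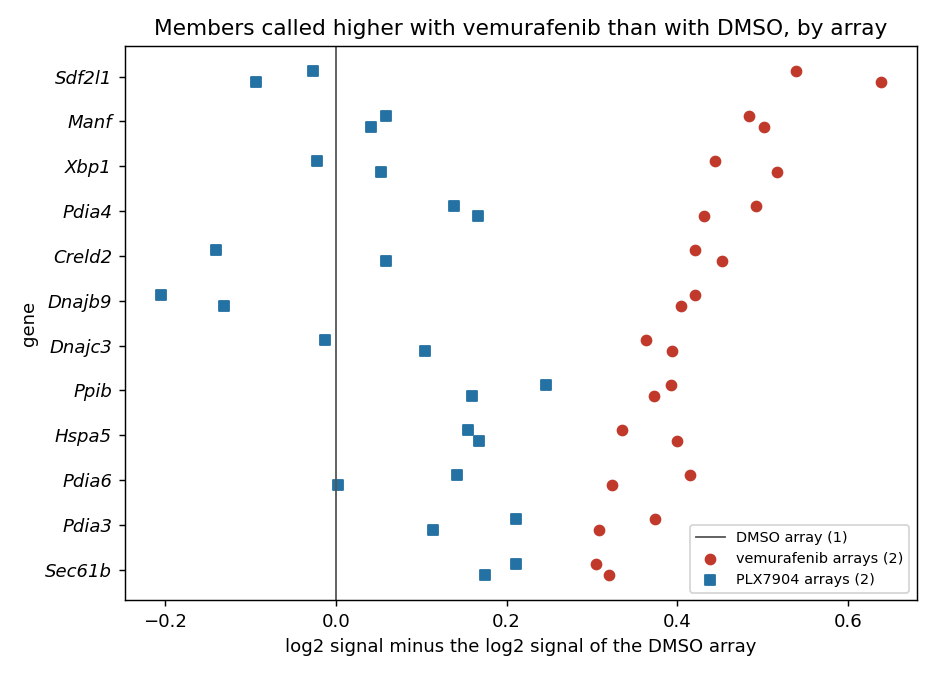
Signal on each treated array relative to the DMSO array, as a log2 difference, for the 12 genes called higher with vemurafenib than with DMSO. Circles are the 2 vemurafenib arrays and squares the 2 PLX7904 arrays. Every vemurafenib point lies between 0.30 and 0.64 and every PLX7904 point between -0.21 and 0.25.

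The HSP70 and HSP90 system of the ER lumen, counted with its cofactors and with Manf and Creld2, gave the most calls of any role, with 6 of 10 members. It was also the role with the most members, and 5.43% of all genes tested were called higher. Sdf2l1, which works with the cochaperone ERdj3 in the BiP cycle, read 1093 with DMSO, 1589 and 1702 with vemurafenib, and 1072 and 1024 with PLX7904. Both vemurafenib arrays stood clear of the other 3, which lay close together. Sdf2l1 was 1.50-fold higher with vemurafenib than with DMSO (95% interval 1.27 to 1.78, adjusted p = 0.00809). Manf, a stress-induced ER protein that can be secreted, read 7982 with DMSO, 11164 and 11300 with vemurafenib, and 8312 and 8212 with PLX7904. It rose 1.41-fold (1.27 to 1.56, adjusted p = 0.00185), the smallest adjusted p of the 37. Creld2, another ER protein induced by stress, read 2169 with DMSO, 2904 and 2969 with vemurafenib, and 1967 and 2259 with PLX7904. Here the PLX7904 arrays lay on either side of DMSO, and the rise with vemurafenib was 1.35-fold (1.15 to 1.59, adjusted p = 0.0262).

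Dnajb9, the cochaperone ERdj4, which directs BiP to IRE1 and to misfolded chains, read 1015 with DMSO, 1360 and 1344 with vemurafenib, and 880 and 926 with PLX7904. It was the called gene whose PLX7904 arrays both lay furthest below DMSO, and it rose 1.33-fold with vemurafenib (1.12 to 1.58, adjusted p = 0.0401). Dnajc3, the cochaperone p58IPK, read 2516 with DMSO, 3238 and 3307 with vemurafenib, and 2493 and 2705 with PLX7904. Its rise was 1.30-fold (1.13 to 1.50, adjusted p = 0.0283). Hspa5, or BiP itself, read 18131 with DMSO, 22882 and 23919 with vemurafenib, and 20193 and 20371 with PLX7904. The PLX7904 arrays of Hspa5 lay between DMSO and vemurafenib, and the rise with vemurafenib was 1.29-fold (1.17 to 1.42, adjusted p = 0.00475). After quantile normalization its log2 difference of 0.37 became 0.21 and was not called.

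The other 4 of this role did not pass. Hsp90b1, the chaperone GRP94, read 10322 with DMSO, 12383 and 11852 with vemurafenib, and 9210 and 11032 with PLX7904, a log2 difference from DMSO of 0.23 (SE 0.10, adjusted p = 0.170). Dnajb11, the cochaperone ERdj3, differed by 0.12 (SE 0.10). Hyou1, a nucleotide exchange factor of BiP, differed by -0.05 (SE 0.19), and its PLX7904 arrays read 919 and 1372, on either side of all the others. Dnajc10, a disulfide reductase with a J domain, differed by -0.22 (SE 0.11, adjusted p = 0.233), while its other probe sets differed by 0.14 and 0.37.

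Of 6 genes of disulfide formation 3 rose, beside the 5.43% of all genes tested that were called higher. Pdia4 (ERp72) read 1025 with DMSO, 1444 and 1384 with vemurafenib, and 1129 and 1151 with PLX7904, and rose 1.38-fold with vemurafenib (1.17 to 1.62, adjusted p = 0.0220). Pdia6 (P5), an isomerase that associates with BiP, read 4121 with DMSO, 5494 and 5159 with vemurafenib, and 4546 and 4129 with PLX7904. It rose 1.29-fold (1.12 to 1.48, adjusted p = 0.0279). Pdia3 (ERp57), the partner of calnexin and calreticulin, read 11839 with DMSO, 15338 and 14661 with vemurafenib, and 13705 and 12813 with PLX7904. It rose 1.27-fold (1.14 to 1.41, adjusted p = 0.0138), and its PLX7904 arrays lay above DMSO and below vemurafenib. P4hb, the founding protein disulfide isomerase, differed by a log2 of 0.13 (SE 0.07), Ero1l, the oxidase that recharges it, by 0.24 (SE 0.10), and Pdia5 by 0.29 (SE 0.18). None of these 3 passed.

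Among the prolyl isomerases, Ppib (cyclophilin B) read 9201 with DMSO, 12085 and 11917 with vemurafenib, and 10913 and 10280 with PLX7904. Its rise with vemurafenib was 1.30-fold (1.17 to 1.45, adjusted p = 0.00790). Fkbp2 differed by a log2 of 0.05 (SE 0.09). Of the glycoprotein folding lectins and their glucosyltransferase, 0 of 3 passed. Calr (calreticulin) read 9084 with DMSO, 12267 and 10996 with vemurafenib, and 11019 and 9082 with PLX7904. The vemurafenib and PLX7904 arrays of Calr overlapped on this probe set, and its log2 difference from DMSO of 0.35 (SE 0.11) had an adjusted p of 0.0680. On its other, dimmer probe sets the compounds did not overlap, and the log2 differences of vemurafenib from DMSO were 0.25 and 0.22. Canx (calnexin) differed by 0.07 (SE 0.11) and Uggt1, which returns sugar to misfolded chains, by -0.10 (SE 0.12).

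Of the 3 sensors none passed, while their downstream factor did. Xbp1 read 4459 with DMSO, 6067 and 6381 with vemurafenib, and 4391 and 4626 with PLX7904. The total Xbp1 transcript rose 1.40-fold (1.23 to 1.58, adjusted p = 0.00537), and these signals do not say how much of it was spliced. Eif2ak3 read 439 with DMSO, 525 and 562 with vemurafenib, and 443 and 454 with PLX7904, a log2 difference from DMSO of 0.30 (SE 0.14, adjusted p = 0.199). Ern1 read 745 with DMSO, 930 and 855 with vemurafenib, and 833 and 918 with PLX7904, so that the compounds overlapped, and its difference of 0.26 (SE 0.13) did not pass. Atf6 read 590 with DMSO, 441 and 503 with vemurafenib, and 562 and 631 with PLX7904. On the probe set used, it was the 1 gene of the 37 with both vemurafenib arrays below the other 3. This pattern was found in 27.6% of all genes tested. Its log2 difference from DMSO of -0.32 (SE 0.15, adjusted p = 0.197) did not pass. The other Atf6 probe sets, also past the filter, differed from DMSO by 0.26 and -0.05, so the direction depended on the probe set.

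None of the 9 genes of degradation from the ER passed. Edem1, a lectin that extracts misfolded glycoproteins, had the largest log2 difference of these, 0.28 (SE 0.11, adjusted p = 0.138). Syvn1, the ubiquitin ligase HRD1, was at 0.23 (SE 0.10), and its partner Sel1l at -0.01 (SE 0.12). Herpud1, a membrane component of the ligase complex, was at 0.20 (SE 0.12), with vemurafenib arrays at 1244 and 1073 and PLX7904 arrays at 1225 and 1151. The derlins, which form part of the exit channel, were at 0.17 (Derl2, SE 0.09), 0.11 (Derl1, SE 0.09) and -0.20 (Derl3, SE 0.51). Derl3 was the dimmest of the 37, with signals between 44.2 and 92.2 that carry little information. Edem2 was at -0.20 (SE 0.15) and the lectin Os9 at -0.12 (SE 0.20). Of the translocation genes Sec61b, a subunit of the channel, read 11548 with DMSO, 14261 and 14414 with vemurafenib, and 13371 and 13032 with PLX7904. It rose 1.24-fold with vemurafenib (1.12 to 1.37, adjusted p = 0.0136). The channel's pore subunit Sec61a1 (0.17, SE 0.09) and the translocon-associated Ssr1 (0.06, SE 0.08) did not pass.

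**Figure D2:**
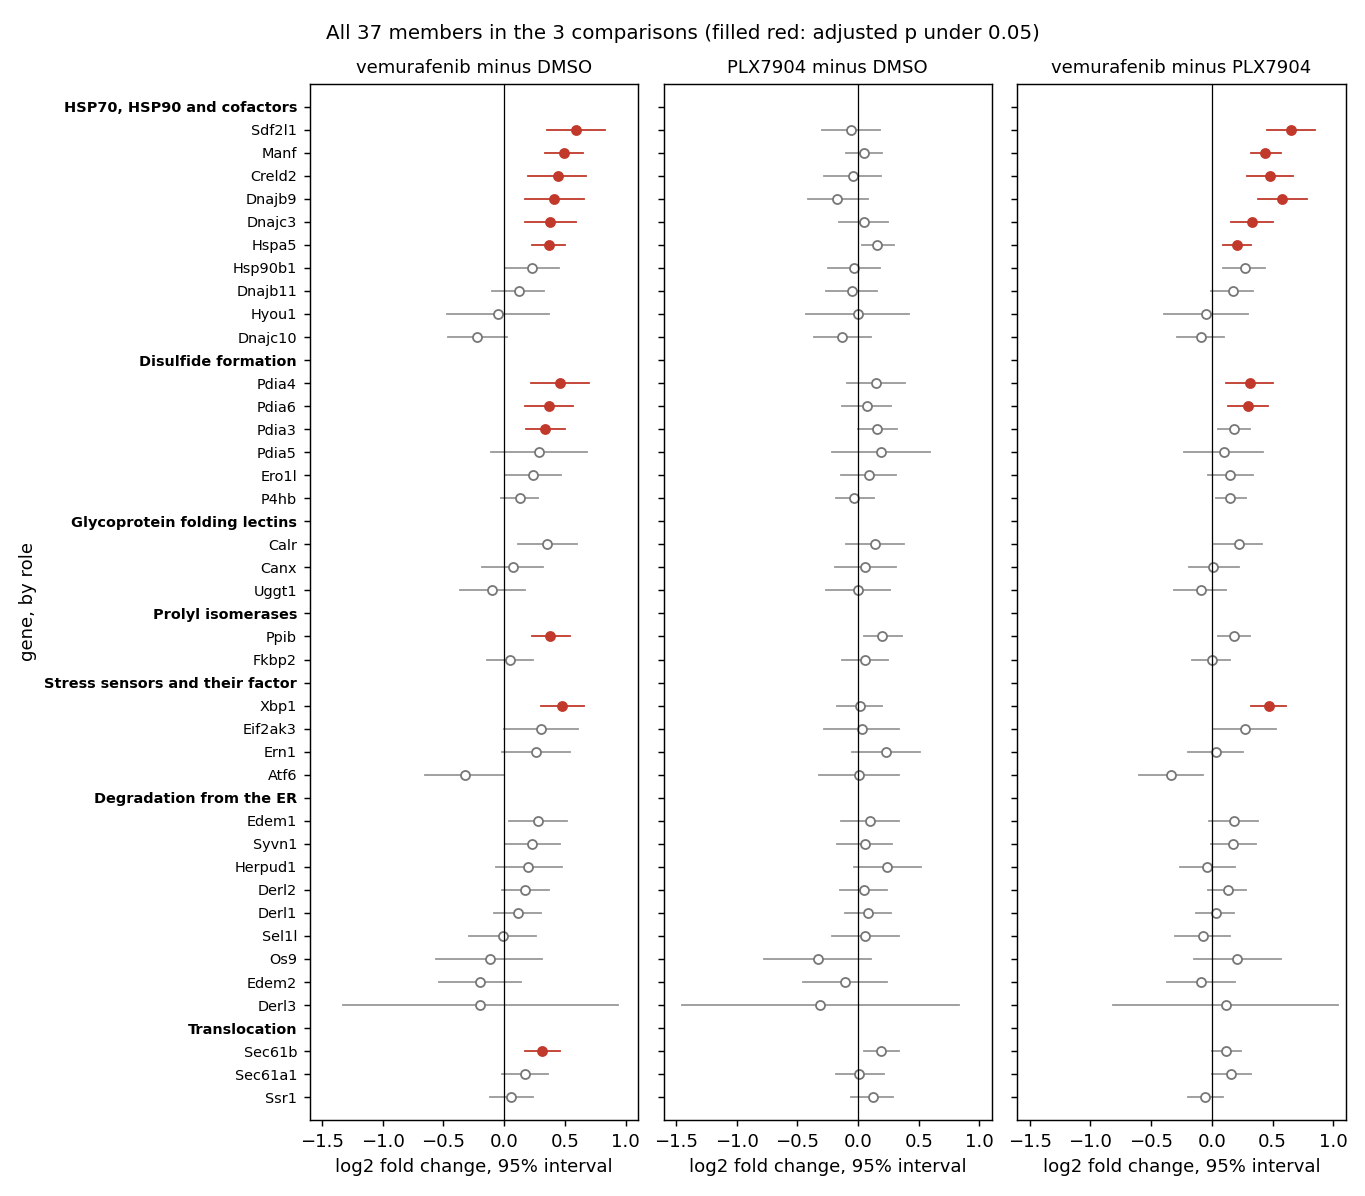
Log2 fold changes of all 37 genes with 95% intervals from the limma fit, by role, in the 3 comparisons. Filled red points passed at an adjusted p under 0.05: 12 in the left panel, 0 in the middle and 9 on the right, all of them to the right of 0.

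The DMSO array does not enter the means of the comparison between the compounds, made at the same dose and time. In it 9 of the 37 genes were higher with vemurafenib than with PLX7904 and 0 lower, 24.3% of the list, where 6.43% of all genes tested were called higher, 6.87% lower and 13.3% in either direction. All 9 were among the 12 called against DMSO, with which this comparison shares the vemurafenib arrays. Sdf2l1 was 1.57-fold higher (1.37 to 1.80, adjusted p = 0.00125), Dnajb9 1.50-fold (1.30 to 1.72, adjusted p = 0.00249) and Creld2 1.39-fold (1.22 to 1.59, adjusted p = 0.00557). Xbp1 was 1.38-fold higher (1.24 to 1.53, adjusted p = 0.00167) and Manf 1.36-fold (1.25 to 1.48, adjusted p = 8.28e-04). Dnajc3 (1.26-fold), Pdia4 (1.24-fold), Pdia6 (1.23-fold) and Hspa5 (1.15-fold) were the others, with adjusted p from 0.0173 to 0.0416. As against DMSO, 0 of the 37 passed without limma's trend, and 5 passed without vemurafenib replicate 1.

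The 3 genes called only against DMSO were Pdia3, Ppib and Sec61b. Between the compounds Pdia3 differed 1.13-fold (1.03 to 1.24, adjusted p = 0.0712), Ppib 1.13-fold (1.04 to 1.24, adjusted p = 0.0682) and Sec61b 1.09-fold (1.00 to 1.18, adjusted p = 0.178). These intervals, not adjusted for the number of genes, do not show that the compounds acted alike on them. Of the genes called in neither comparison, Hsp90b1 came closest between the compounds, at 1.20-fold (1.06 to 1.36, adjusted p = 0.0550). Atf6 was the lowest, at a log2 difference of -0.34 (SE 0.12, adjusted p = 0.0978), while its other probe sets differed by 0.10 and -0.14. In 21 of the 37 genes (56.8%) both vemurafenib arrays lay above the other 3 arrays, where 19.2% of all genes tested had that pattern. The same 21 had both vemurafenib arrays above both PLX7904 arrays, a pattern of 23.8% of all genes tested.

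With PLX7904, limma called 0 of the 37 genes against DMSO, 0% of the list and 0% of all genes tested. At an unadjusted p under 0.05 there were 4 of the 37 and 722 of all genes. Robust fitting also called 0 of the 37, and 3 of all genes. Without vemurafenib replicate 1 or replicate 2 the calls over all genes were 29 and 27, again with 0 of the 37. The median log2 difference of the 37 was 0.05, against -0.01 over all genes tested, and 25 of the 37 lay above 0. The 4 genes were Hspa5 (1.12-fold, 95% interval 1.02 to 1.23, adjusted p = 0.631), Ppib (1.15-fold, 1.03 to 1.28, adjusted p = 0.578), Sec61b (1.14-fold, 1.03 to 1.26, adjusted p = 0.573) and Pdia3 (1.12-fold, 1.00 to 1.25, adjusted p = 0.733). All 4 lay in the brightest 10% of genes tested, whose median difference in this comparison was 0.07. The largest difference upward was that of Herpud1 (0.24, SE 0.12, adjusted p = 0.784). The largest downward was that of Os9, which read 581 with DMSO and 389 and 546 with PLX7904 (-0.33, SE 0.20, adjusted p = 0.819).

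Array by array, the median of the 37 log2 differences from the one DMSO array was 0.24 and 0.23 for the vemurafenib arrays and 0.03 and 0.08 for the PLX7904 arrays. The vemurafenib arrays had 29 and 31 of the 37 genes above DMSO, and the PLX7904 arrays 21 and 28. These counts share the DMSO array.

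Signal moved with these results. Across all genes tested, the median difference between vemurafenib and DMSO went from -0.21 in the dimmest 10% of genes to 0.10 in the brightest, and 13 of the 37 genes lay in the brightest 10%. Between vemurafenib and PLX7904 the same medians were -0.17 and 0.01. Among the 3995 genes at least as bright as the dimmest called gene of the list (a mean signal of 1090), 9.86% were called higher with vemurafenib than with DMSO and 10.4% than with PLX7904. Their median difference between vemurafenib and DMSO was 0.02. Normalizations that remove such a trend changed the counts little and the values of bright genes more. With each array centred on its median, the median of all genes tested moved to 0.10 and that of the 37 to 0.38. After quantile normalization 10 and 9 of the 37 passed in the 2 comparisons, after cyclic loess 10 and 8, and after subtracting each array's own trend, an alternative added after seeing the data, 10 and 9. Sec61b was not called against DMSO after any of the 3, Hspa5 was not after quantile normalization, and Pdia3 was not after cyclic loess or the subtraction. The log2 difference of Hspa5 from DMSO fell from 0.37 to 0.21, 0.22 and 0.21 in these 3 alternatives. That of Pdia3 went from 0.34 to 0.22 in each, and that of Sec61b from 0.31 to 0.19.

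**Figure D3:**
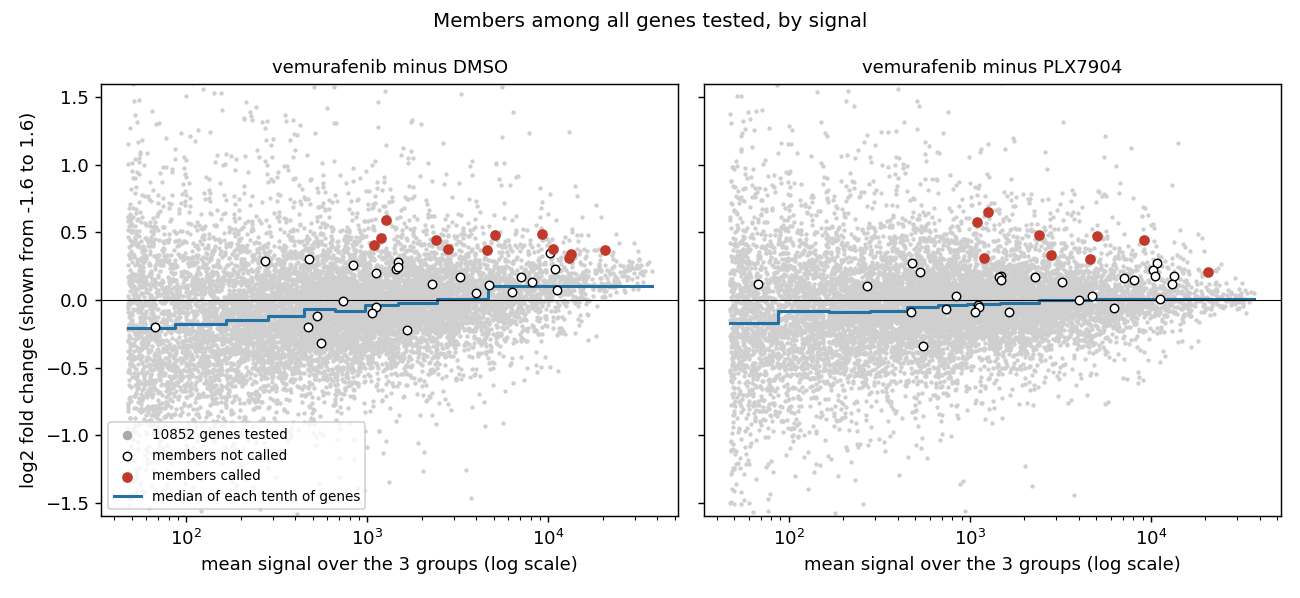
Log2 fold change against mean signal (log scale) for the 10852 genes tested (grey) and the 37 genes of the list, called (red) or not called (open), with the median of each 10% of genes as a line. In the left panel the line rises from -0.21 to 0.10, and the called genes lie above it between 0.31 and 0.59.

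Different probe sets of 1 gene did not always agree. Of the 37 genes 27 had more than 1 probe set. All 3 other probe sets of Xbp1 were higher with vemurafenib than with DMSO, by log2 differences of 0.78, 0.41 and 0.28, and that of Ppib was too, by 0.28. Hspa5 read 0.34 on its second probe set (signal 10828) but -0.23 on its dimmest (signal 1208). Dnajc3 read 0.38 on the brightest of 5 probe sets and -0.19, 0.32, -0.23 and -0.45 on the others, from brighter to dimmer. Between the compounds the other probe sets of Xbp1 differed by 0.56, 0.52 and 0.29, and those of Hspa5 by 0.33 and -0.32. Those of Dnajc3 differed by -0.09, 0.24, -0.12 and 0.08, and that of Pdia6 by 0.30. Pdia4 had only 1 other probe set, with a mean signal of 14.0, below the filter. Over the 12 other probe sets past the filter of genes called against DMSO, 8 lay above 0, at a median of 0.28. Over the 34 such probe sets of genes not called, 19 did, at a median of 0.06. Sdf2l1, Manf, Creld2, Dnajb9 and Sec61b had 1 probe set each, so no second reading exists for them here.

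**Figure D4:**
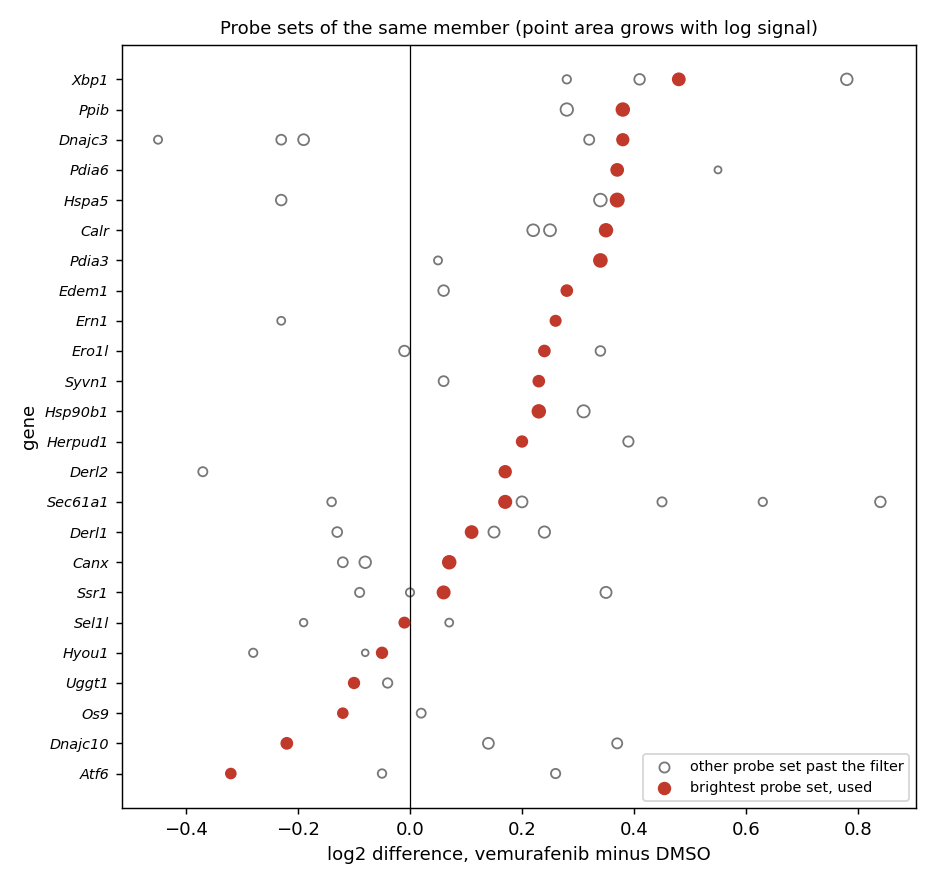
Log2 difference between vemurafenib and DMSO on every probe set past the filter, for the 24 genes with more than 1 such probe set. Filled points are the brightest probe set, the one used, and open points the others. For Xbp1 all points lie above 0, whereas those of Dnajc3 run from -0.45 to 0.38.

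Calls also depended on the number of arrays. Without 1 vemurafenib array, the comparison with DMSO rests on 1 array against 1. Against DMSO, leaving out vemurafenib replicate 1 ended the calls of Dnajb9, Dnajc3, Pdia3, Pdia4 and Pdia6. Their log2 differences changed little, from 0.41, 0.38, 0.34, 0.46 and 0.37 to 0.40, 0.39, 0.31, 0.43 and 0.32. Leaving out vemurafenib replicate 2 ended the calls of Dnajb9, Dnajc3, Creld2 and Sec61b. The log2 differences of Dnajb9 and Dnajc3 were then 0.42 and 0.36. Against DMSO the calls of Sdf2l1, Manf and Ppib held in 16 of 17 alternatives, all but the fit without limma's trend, with log2 fold changes from 0.54 to 0.74, 0.39 to 0.64 and 0.27 to 0.53. Xbp1 held in 15 and also lost its call when probe sets marked as matching more than 1 transcript were left out, where its log2 fold change was 0.28. The calls against DMSO not named here held in 11 to 14 of 17 alternatives, or 13 of 16 for Hspa5. Between the compounds Sdf2l1, Dnajb9, Creld2 and Manf held in 17 of 18 alternatives. Xbp1 held in 16, Dnajc3 in 14, Pdia6 in 13 and Pdia4 in 11 of 18, and Hspa5 in 11 of 17.

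By promoter element, 4 of the 9 genes with an ERSE were called against DMSO, and the same number between the compounds. In the whole list 12 and 9 of the 37 were called, all higher. Over all genes tested 5.43% and 6.43% were called higher in these comparisons. Of the 11 genes with an ERSE or an ERSE-II, 4 were called in each comparison. Of the 21 genes with a promoter and neither element, 7 were called against DMSO and 4 between the compounds, among them in both Sdf2l1, whose window held none of the motifs. A match is a stretch of letters and not a measured binding site.

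Other genes of the same pathway, listed by role, were counted too, against the 5.43% of all genes tested called higher with vemurafenib than with DMSO and the 6.43% than with PLX7904. Of 25 other folding factors of the ER tested, 2 rose with vemurafenib against DMSO and 0 fell, at a median log2 of 0.00. These were Calu, the calcium-binding calumenin (1.33-fold, adjusted p = 0.00749), and Sdf2, the close relative of Sdf2l1 (1.33-fold, adjusted p = 0.0172). Between the compounds 3 were higher, Erp44, a retention factor for disulfide-bonded proteins (1.32-fold), Sdf2 (1.25-fold) and Calu (1.20-fold). Of 16 other degradation genes 3 rose against DMSO and 0 fell, at a median of 0.03. Selenos, a membrane protein that links the derlins to the ATPase VCP, rose 1.51-fold (adjusted p = 0.00187) and Ube2j1, a ubiquitin-conjugating enzyme of the ER membrane, 1.31-fold (adjusted p = 0.0377). Vcp itself rose 1.21-fold. Selenos (1.37-fold) and Ube2j1 (1.24-fold) were also higher than with PLX7904. Of 18 other translocation and signal cleavage genes Sec11a, a signal peptidase subunit, rose against DMSO (1.24-fold, adjusted p = 0.0441), at a median of 0.10. Sec63, which couples BiP to the channel, was higher than with PLX7904 (1.23-fold, adjusted p = 0.0261). Of 13 genes of the oligosaccharyltransferase and the glucosidases 0 passed in either comparison, with medians of -0.01 and -0.04. With PLX7904 against DMSO, limma called 0 genes of these 4 lists.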

How the data were processed

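Total RNA of 5 cultures was hybridised to Affymetrix arrays, 1 array each. The deposited values are linear intensities, MAS5 signals per the submitters' processing notes, which give no version. The mean of the middle 96% of values was 500 on every array, so the authors' scaling fixes this trimmed mean and not each array's total. Of 45101 probe sets, 34945 carried 1 gene symbol in the platform annotation, 932 several and 9211 none, and the other 13 were array controls. For each gene the brightest probe set with 1 symbol was used. A gene was tested if its mean signal over the 3 groups reached 47.4 (the overall median), on log2(signal + 3.34), the 10th percentile, with limma 3.58.1 in R 4.3.3. The fit had 3 group means, a variance trend with signal, 2 residual and 8.27 prior degrees of freedom, and Benjamini-Hochberg adjustment over all 10852 genes. It was tested on simulated data. Intervals are 95% and unadjusted. Figures were drawn with matplotlib 3.10.9. All genes of the list were described, with values on every array for those called and for others by role. The members and lists were chosen with earlier results of these data known. Alternatives changed the pseudocount, filter, normalization, variance model, probe set choice, replicate block and the arrays included.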

Additional observations from a re-analysis of the deposited data

How the results depend on the processing

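Of the 37 genes, the number called higher with vemurafenib than with DMSO (12) was 6 without the filter on signal, 5 with the mean of all probe sets and 0 without limma's variance trend. Leaving out 1 array at a time gave 7 to 14, the lowest without vemurafenib replicate 1. The number called between the compounds (9) was 0 without the trend and 5 to 11 with 1 array left out, the lowest again without vemurafenib replicate 1. With only the 4 treated arrays it was 9. Over all genes, 1154 calls against DMSO became 657 without the filter, 443 with the mean of all probe sets and 43 without the trend. Between the compounds 1443 became 661 with that mean, 35 without the trend and 900 without vemurafenib replicate 1. Against DMSO, PLX7904 gave 0 calls among the 37 in every alternative run, while calls over all genes (0) rose to at most 29, without vemurafenib replicate 1.

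The median log2 fold change of the 37 for vemurafenib against DMSO (0.23) moved to 0.38 with median centring and 0.16 with the mean of all probe sets. Between the compounds (0.16) it moved to 0.30 and 0.12, and to between 0.12 and 0.16 with 1 array left out. For PLX7904 against DMSO (0.05) it was 0.03 to 0.08 with 1 array left out. With the mean of all probe sets Dnajc3 and Pdia4 turned to -0.04 and -0.06 for vemurafenib against DMSO. Over all values of single genes and alternatives, 1726 kept their direction and side of the threshold, 84 changed sign without a call in either fit, 69 lost and 22 gained a call, and the other 2 are those of Dnajc3 and Pdia4.

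With the replicate number as a block 11, 0 and 12 of the 37 were called for vemurafenib against DMSO, PLX7904 against DMSO and vemurafenib against PLX7904. Across genes tested the deviations of same-numbered arrays correlated at -0.0071, so the numbers were not taken to pair the cultures. Dim genes such as Derl3 are limited by signal, and 1 DMSO array gives no spread of its own.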

Other observations

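Among genes of the COPII coat and of cargo exit from the ER, the step after folding, 16 were tested. Of these, 5 rose with vemurafenib against DMSO and 1 fell, at a median log2 of 0.23. Over all genes tested 5.43% were called higher and 5.21% lower in that comparison, and 6.43% and 6.87% between the compounds. Sec24d, a cargo-selecting coat subunit, read 774 with DMSO, 1475 and 1628 with vemurafenib, and 752 and 997 with PLX7904. It rose against DMSO (limma adjusted p = 0.00376), and both vemurafenib arrays stood above the other 3. Sar1a, the GTPase that starts the coat, rose 1.38-fold (adjusted p = 0.00975). Sec24b fell 1.49 times (adjusted p = 0.0232), from 869 with DMSO to 555 and 609 with vemurafenib, and read 427 and 423 with PLX7904. Between the compounds 9 of the 16 were higher and 1 lower with vemurafenib, at a median of 0.32. They included Sec24d (1.79-fold, adjusted p = 0.00252) and the coat subunit Sec23a (1.59-fold, adjusted p = 0.00111). Sec24b was also among the 9 (1.37-fold, adjusted p = 0.0230), although it read below DMSO with both compounds. Tmed10, a cargo receptor, was 1.31 times lower (adjusted p = 0.0133).

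In the PERK-ATF4 branch and other stress regulators 2 of 17 rose and 1 fell against DMSO, at a median of 0.07, where 10.6% of all genes tested were called in either direction. Creb3l2, a membrane-bound transcription factor, rose 1.78-fold (adjusted p = 0.0103) and Ppp1r15a (GADD34), which ends the PERK signal, 1.53-fold (adjusted p = 0.0240), while Nupr1 fell 1.49 times (adjusted p = 0.0446). Between the compounds 4 were higher, Ppp1r15a (1.81-fold), Creb3l2 (1.54-fold), Atf3 (1.39-fold) and Chac1 (1.31-fold), and 2 lower, Cebpb and Mbtps2 (both 1.27 times). Over all genes tested 13.3% were called in either direction between the compounds. Atf4, Ddit3 and Trib3, the core targets and factor of that branch, were called in neither comparison. Against DMSO their adjusted p were 0.255, 0.366 and 0.813. Of 23 cytosolic and mitochondrial chaperones 3 rose against DMSO (Dnaja1 1.25-fold, Hspa4 1.24-fold and Cct2 1.20-fold) and 2 fell (Cryab 1.86 times and Dnajb4 1.58 times), at a median of 0.10, also with the 10.6% of all genes as the background. Between the compounds only Hspa1b, a heat shock protein of the cytosol, was called, 1.37 times lower with vemurafenib (adjusted p = 0.0377). The background there is the 13.3% of all genes. With PLX7904 against DMSO limma called 0 genes of these 3 lists, as of all genes tested, where 722 had an unadjusted p under 0.05.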
